A study of Homo sapiens with 12 samples.

Results

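The genes described here are 56 direct targets of the transcription factor p53 that lie outside its best-known sets (feedback regulators, cell cycle arrest, death receptors, BCL2 family, DNA repair and core metabolism). They were taken from a deposited table of raw read counts by gene symbol, and all 56 were among its 55773 gene entries. Of all entries, 15691 held enough reads for a test, and 53 of the 56 targets were among them. RNA was measured by poly(A) RNA sequencing in RBE cells, an established human cholangiocarcinoma (bile duct cancer) line that makes 2-hydroxyglutarate through mutant IDH1. The study asked how this metabolite alters the genes that p53 directs. For 22 days cells had received either the DMSO vehicle or AG-120 (ivosidenib, an inhibitor of mutant IDH1) at 5 µM, followed by 72 hours without or with 5 µM Nutlin, which blocks MDM2. This gave 4 groups of 3 libraries: vehicle, vehicle_Nutlin (vehicle, then Nutlin), AG120 (AG-120 alone) and AG120_Nutlin (AG-120, then Nutlin). The groups share 1 cell line and the mutant enzyme, and no group had its 2-hydroxyglutarate measured in these files. The labels do not say whether replicates were separate cultures, so p-values measure the spread between these libraries, which may be technical.

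MDM2 is a ubiquitin ligase that binds p53 and sends it to the proteasome, and Nutlin occupies the p53-binding pocket of MDM2, so that p53 accumulates. As a tetramer p53 binds DNA at a pair of short half-sites near or within its target genes and raises their transcription. Arrest and death genes are its most studied targets. The genes treated here act in cell death and autophagy, in lipid and small-molecule metabolism, in signalling, in membranes and vesicle traffic, and in gene regulation. Mutant IDH1 makes 2-hydroxyglutarate, which inhibits dioxygenases such as histone and DNA demethylases, and AG-120 stops its production.

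Library totals ran from 16840161 to 27499433 counts. All 7 biliary markers were present, at a summed 4950 to 8180 CPM (read counts scaled to a common library size). CPM use effective library sizes (TMM, the trimmed mean of M values), and changes are log2 fold changes with standard errors (SE) from 1 edgeR quasi-likelihood model of all 12 libraries. A gene was called at a Benjamini-Hochberg adjusted p of at most 0.05 over all 15691 genes. Replicates differed most after Nutlin in vehicle cells: the median SD of the 53 targets was 0.24 (log2) in vehicle_Nutlin, 0.17 in AG120, 0.09 in vehicle and 0.04 in AG120_Nutlin. In vehicle_Nutlin replicate 3, MICALL1, RALGDS and TP53I11 lay more than 2-fold below the mean of replicates 1 and 2 (MICALL1 also below each of them). That library, vehicle_Nutlin replicate 2 and AG120 replicate 1 stood apart from their groups over all genes. A fit without these 3 libraries leaves 1 vehicle_Nutlin library. For comparisons that use that group, its calls take their spread from the remaining groups only. They cannot show a difference from vehicle_Nutlin beyond its own spread, so no conclusion is drawn from them where they are given below. The comparisons share libraries, so they are not independent of each other.

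Nutlin raised nearly all of these genes in vehicle cells. Of the 53 tested, 52 were called higher and 0 lower, against a background of 26.8% of all genes called higher and 27.1% called lower. The genes were chosen with earlier results of these data known, so this contrast is not an independent result, here or in AG-120 cells. The median change was 2.08 (log2), against -0.02 over all genes tested. Of the 53, 51 rose at least 2-fold, 28 at least 4-fold and 10 at least 8-fold, against 11.8%, 4.69% and 2.33% of all genes called higher by as much. ALOX5 and FAM13C were under the filter's minimum of 0.52 CPM in every library without Nutlin, so they entered the test through the Nutlin libraries and could only come out higher. VWCE lay near that minimum, at 0.0857 to 1.28 CPM without Nutlin. In 52 genes all 3 vehicle_Nutlin libraries stood above all 3 vehicle libraries, a pattern that 28.3% of all genes showed, while 30.9% showed its opposite. LAPTM5 was the exception to both counts. The count was 52 in each of the alternative fits that left more than 1 library in every group.

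In AG-120 cells all 53 tested targets were called higher with Nutlin, against 27% of all genes called higher and 28.8% called lower. Their median change was 2.13, and 49 rose at least 2-fold, 31 at least 4-fold and 11 at least 8-fold, against 12.9%, 5.43% and 2.61% of all genes. In all 53 every AG120_Nutlin library stood above every AG120 library, as it did in 35.1% of all genes. The per-gene changes ranged from 0.46 (LAPTM5) to 7.62 (FAM13C). ALOX5 and FAM13C are among the 53 and the 11, and here too they could only come out higher.

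Cell type markers also moved with Nutlin. Of the 7 biliary markers 3 were called lower and 1 higher in each background. All 3 tested fibroblast markers were called lower in each: the summed level of the 7 listed was 38 to 42.3 CPM in vehicle and 3.25 to 5.77 in vehicle_Nutlin, and 40.8 to 45.5 in AG120 and 2.47 to 3.2 in AG120_Nutlin, with 2 of the 7 at 0 in every library. Their part in the responses was not tested. All libraries are from 1 cell line, RBE, so these levels do not count fibroblasts or other cell types. In bulk RNA, fewer expressing cells and less RNA per cell cannot be told apart.

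**Figure D1:**
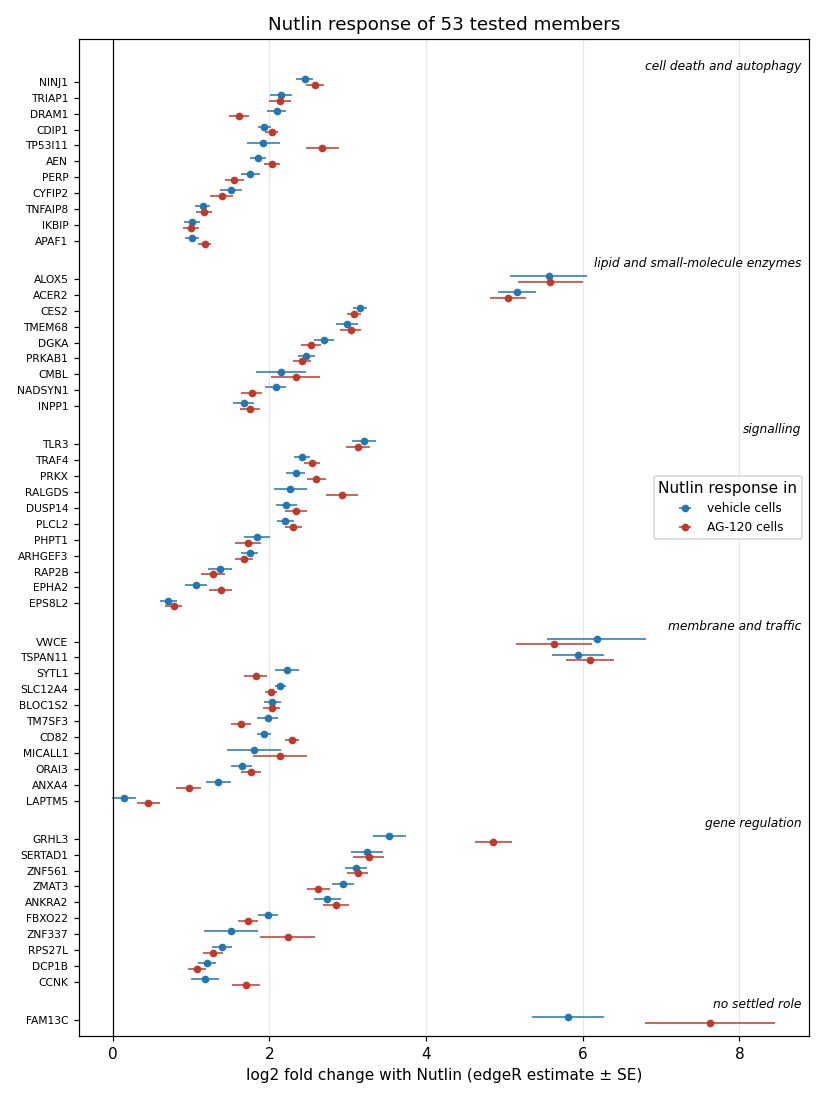
Log2 fold change with Nutlin (x axis, edgeR estimate ± SE) of the 53 tested target genes (y axis, grouped by role), in vehicle cells in blue and in AG-120 cells in red. All estimates lie right of 0, LAPTM5 is nearest to it at 0.15 and 0.46, and FAM13C lies farthest right in AG-120 cells at 7.62.

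Promoter sequences were searched for a p53 site because the genes rose together. They had been listed as direct p53 targets beforehand, so a higher share of sites in them is not an independent result. A p53 half-site is 10 bases long: 3 purines, a C, 2 bases that are each A or T, a G and 3 pyrimidines. A site was counted where 2 half-sites stood 0 to 13 bases apart with at most 2 mismatches in all and the C and G of each half-site in place. The pattern reads the same on both strands, and no other motif was searched. The promoters are the 250 bases before and 50 bases after each RefSeq transcription start (GRCh38.p14), and 50 of the 56 genes matched, with 82 promoters. A site was found in 8 of the 82 promoters (9.76%), against 1030 of all 35116 promoters of the same length (2.93%). By gene it was found in 7 of the 50 (14%), against 3.62% of all genes with a promoter. At least 1 exact half-site was in 11% of the 82 promoters and in 6.63% of all. These 8 sites are shown because they mark which of the rising genes carry the motif in this window. Capitals mark the half-sites, each sequence reads 5′ to 3′ on the gene's strand, flanks end before the start, and the FAM13C sites, which reach past it, are printed without flanks.
AEN: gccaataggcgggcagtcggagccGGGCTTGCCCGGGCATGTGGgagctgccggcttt
GRHL3: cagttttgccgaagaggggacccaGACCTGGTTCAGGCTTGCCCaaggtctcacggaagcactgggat
SLC12A4: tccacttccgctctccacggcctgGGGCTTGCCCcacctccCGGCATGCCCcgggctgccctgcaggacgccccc
FAM13C at the start: GGGCGAGCCCggAGACTTGCCT
FAM13C past the start: AGACATGTGGaagaAAGCAAGTCT
DCP1B: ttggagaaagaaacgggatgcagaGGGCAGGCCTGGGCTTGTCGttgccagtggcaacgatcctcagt
EPS8L2: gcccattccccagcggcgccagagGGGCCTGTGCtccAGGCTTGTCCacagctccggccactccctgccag
SYTL1: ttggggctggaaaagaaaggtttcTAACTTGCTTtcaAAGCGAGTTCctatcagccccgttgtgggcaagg
The AEN window (chr15:88621282-88621339, plus strand) holds 2 half-sites with no bases between them and 2 mismatches, 34 to 15 bases before the start. In GRHL3 (chr1:24322899-24322966, plus strand) the half-sites are also adjacent, with 2 mismatches, 117 to 98 bases before the start. SLC12A4 (chr16:67964071-67964145, minus strand) has 1 mismatch and 7 bases between its half-sites, 69 to 43 bases before the start. FAM13C (minus strand) has sites in 2 of its promoters: chr10:59362538-59362559 spans the start itself with 1 mismatch, and chr10:59362868-59362891 lies 13 to 36 bases into the transcript with 2 mismatches. DCP1B (chr12:2004626-2004693, minus strand), EPS8L2 (chr11:720478-720548, plus strand) and SYTL1 (chr1:27341794-27341864, plus strand) each have 2 mismatches. A match is a description of letters, not a measured binding site. The 7 genes did not share a size of response: in vehicle cells EPS8L2 rose least of them, by 0.71 (log2), and FAM13C most, by 5.81.

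Cell death and autophagy genes rose in both backgrounds. All 11 tested members were called higher with Nutlin in vehicle cells, with changes of 1.01 to 2.45 and a median of 1.86, and all 11 in AG-120 cells, with a median of 1.61. NINJ1 (chromosome 9, 95883771 to 95896570 in hg19), a surface protein that ruptures the plasma membrane in lytic cell death, had 75.6, 68.2 and 66.2 CPM in vehicle and 379, 382 and 385 CPM in vehicle_Nutlin. It had 58.5, 78.6 and 79.7 CPM in AG120 and 423, 442 and 429 CPM in AG120_Nutlin. Every Nutlin library stood far above every library without it, and the rise was 5.46-fold in vehicle cells (log2 2.45, SE 0.11, edgeR adjusted p = 2.678e-09) and 5.97-fold in AG-120 cells.

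CDIP1 (chromosome 16, 4560676 to 4588829), a pro-apoptotic membrane protein, stood at 48.7, 46.7 and 44.5 CPM in vehicle and at 183, 188 and 164 CPM in vehicle_Nutlin. Its AG120 libraries held 45.8, 44.9 and 45.6 CPM and its AG120_Nutlin libraries 187, 187 and 183 CPM. The groups without Nutlin overlapped, as did the groups with it, where vehicle_Nutlin replicate 3 was lowest at 164 CPM. CDIP1 rose 3.82-fold in vehicle cells (log2 1.93, SE 0.08, edgeR adjusted p = 9.559e-10) and 4.09-fold in AG-120 cells. AEN (chromosome 15, 89164527 to 89175513), a nuclease that takes part in DNA breakdown during apoptosis and whose promoter site is printed above, had 87.1, 81.3 and 85.7 CPM in vehicle and 285, 280 and 355 CPM in vehicle_Nutlin. It had 70.1, 80.5 and 79.2 CPM in AG120 and 300, 320 and 322 CPM in AG120_Nutlin. Its changes were 1.86 (SE 0.10, edgeR adjusted p = 1.35e-08) and 2.04, and vehicle_Nutlin replicate 3 was its highest library.

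TRIAP1, a mitochondrial protein that limits apoptosis, rose 4.44-fold in vehicle cells. DRAM1, a lysosomal membrane protein of autophagy, rose 4.26-fold in vehicle cells and 3.05-fold in AG-120 cells. TP53I11, a p53-induced membrane protein, rose 3.79-fold and 6.39-fold in the same order. PERP, a desmosomal protein linked to apoptosis, and CYFIP2, part of the WAVE actin complex, rose 3.38-fold and 2.85-fold in vehicle cells. The smallest rises were those of TNFAIP8, which restrains caspase activity (2.22-fold), IKBIP (2.02-fold) and APAF1, the scaffold of the apoptosome (2.02-fold). IKBIP and APAF1 are neighbours on chromosome 12, 27 bases apart on opposite strands, and rose by the same 1.01 (log2) in vehicle cells. SPATA18, which acts in the clearance of damaged mitochondrial proteins, did not pass the filter: it had 2 counts over the vehicle libraries, 0 over vehicle_Nutlin, 4 over AG120 and 0 over AG120_Nutlin.

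Enzymes of lipid and small-molecule metabolism gave several of the steepest rises. All 9 tested members were called higher in vehicle cells, with changes of 1.67 to 5.57 and a median of 2.69, and all 9 in AG-120 cells, with a median of 2.53. The change of 5.57 is that of ALOX5, which entered the test through the Nutlin libraries and could only come out higher. CES2 (chromosome 16, 66968347 to 66978999), a carboxylesterase that hydrolyses drug esters and converts irinotecan to its active form, had 103, 97.8 and 99.7 CPM in vehicle. It reached 862, 919 and 902 CPM in vehicle_Nutlin, stood at 140, 124 and 121 CPM in AG120 and reached 1082, 1080 and 1098 CPM in AG120_Nutlin. Its rise was 8.92-fold in vehicle cells (log2 3.16, SE 0.09, edgeR adjusted p = 4.722e-11), the smallest adjusted p of the 53 genes, and 8.46-fold in AG-120 cells. In both pairs of groups the AG-120 libraries stood above the vehicle libraries with no overlap.

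ACER2 (chromosome 9, 19408925 to 19452018), the Golgi ceramidase that releases sphingosine from ceramide, was nearly silent without Nutlin, at 1.7, 1.07 and 2.06 CPM in vehicle and 2.91, 1.57 and 1.69 CPM in AG120. With Nutlin it stood at 54, 54.3 and 69.9 CPM in vehicle_Nutlin and 62.1, 72.9 and 72.4 CPM in AG120_Nutlin. This was a 35.7-fold rise in vehicle cells (log2 5.16, SE 0.24, edgeR adjusted p = 2.175e-09) and a 33.1-fold rise in AG-120 cells. TMEM68, a membrane protein of the acyltransferase family, had 19.6, 23.5 and 18.6 CPM in vehicle, 149, 153 and 186 CPM in vehicle_Nutlin, 16.5, 23.1 and 21.1 CPM in AG120 and 171, 164 and 164 CPM in AG120_Nutlin. The libraries with Nutlin did not overlap those without, and the rise was 7.94-fold in vehicle cells (log2 2.99, SE 0.13, edgeR adjusted p = 2.507e-09) and 8.21-fold in AG-120 cells.

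ALOX5, the lipoxygenase that starts leukotriene synthesis, rose 47.3-fold in vehicle cells and 48-fold in AG-120 cells from at most 0.491 CPM in any library without Nutlin. It is best known from leukocytes. Of 7 leukocyte markers, 3 had 0 counts in every library, and the summed level of all 7 was 1.47 to 4.18 CPM over the 12 libraries. It was 2.82 to 3.06 CPM in vehicle, 2.48 to 4.18 in vehicle_Nutlin, 2.61 to 4.17 in AG120 and 1.47 to 2.71 in AG120_Nutlin. DGKA, the kinase that turns diacylglycerol into phosphatidic acid, rose 6.47-fold in vehicle cells, and PRKAB1, the beta-1 subunit of the energy sensor AMPK, 5.55-fold. CMBL, a cytosolic hydrolase, rose 4.42-fold, and its vehicle_Nutlin libraries were spread widely at 6.94, 3.77 and 10.2 CPM. NADSYN1, which makes NAD in the last step of its synthesis from nicotinic acid, rose 4.22-fold, and INPP1, an inositol phosphate phosphatase, rose 3.19-fold.

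PLTP and ACAD11, the other lipid genes, did not pass the filter. PLTP, the phospholipid transfer protein of plasma lipoproteins, had 0, 0 and 3 counts in vehicle, 0, 6 and 0 in vehicle_Nutlin, 0, 0 and 0 in AG120 and 12, 10 and 13 in AG120_Nutlin. Counts in every library were thus found in AG120_Nutlin only. Against a floor of 3 counts over the AG120 libraries, PLTP was at least 13.6-fold higher in AG120_Nutlin, and against the 6 counts of vehicle_Nutlin the ratio was 6.38 (exact 95% interval 2.66 to 18.6). Such intervals and floors cover counting error only. A fit without the filter called PLTP higher with Nutlin in AG-120 cells (edgeR adjusted p = 0.0001389), as it did 4365 of 29603 genes. With 0 counts in AG120, PLTP could only come out higher there. ACAD11, an acyl-CoA dehydrogenase, had 1 count in all 12 libraries together.

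Signalling genes rose as a group of 11 in each background, with medians of 2.20 in vehicle and 2.31 in AG-120 cells. TLR3 (chromosome 4, 186990306 to 187009223), the endosomal receptor for double-stranded RNA, had 3.51, 3.68 and 2.75 CPM in vehicle and 29.9, 25.6 and 35.6 CPM in vehicle_Nutlin. Its AG120 libraries held 3.73, 4.71 and 4.01 CPM and its AG120_Nutlin libraries 35.6, 35.6 and 37.5 CPM. It was the signalling gene with the largest change in both backgrounds, 9.25-fold in vehicle cells (log2 3.21, SE 0.15, edgeR adjusted p = 3.455e-09) and 8.73-fold in AG-120 cells.

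TRAF4 (chromosome 17, 27071002 to 27077974), an adaptor of receptor signalling and cell polarity, had 61.6, 58.9 and 64 CPM in vehicle, 301, 309 and 376 CPM in vehicle_Nutlin, 48.2, 56.3 and 58.2 CPM in AG120 and 316, 316 and 314 CPM in AG120_Nutlin. All AG120 libraries stood below the vehicle libraries, and the Nutlin response was 5.34-fold in vehicle cells (log2 2.42, SE 0.10, edgeR adjusted p = 1.514e-09) and 5.82-fold in AG-120 cells. PLCL2 (chromosome 3, 16844159 to 17132086), a phospholipase C relative without catalytic activity, had 8.12, 8.54 and 9.15 CPM in vehicle, 42.2, 42.2 and 34.5 CPM in vehicle_Nutlin, 8.31, 8.44 and 9.54 CPM in AG120 and 43, 42.2 and 44.7 CPM in AG120_Nutlin. It rose 4.59-fold in vehicle cells (log2 2.20, SE 0.11, edgeR adjusted p = 4.59e-09) and 4.94-fold in AG-120 cells.

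PRKX, a cyclic-AMP-dependent kinase relative, RALGDS, the exchange factor that couples Ras to Ral, and the phosphatase DUSP14 rose 5.05-fold, 4.82-fold and 4.65-fold in vehicle cells. PHPT1, a protein histidine phosphatase, ARHGEF3, an exchange factor for RhoA, and the small GTPase RAP2B rose 3.59-fold, 3.36-fold and 2.58-fold. EPHA2, an ephrin receptor kinase, rose 2.09-fold. EPS8L2, an actin regulator whose promoter site is printed above, had the smallest called rise of the 53 genes in vehicle cells, 1.63-fold (edgeR adjusted p = 0.0001151), from 274 ± 17.8 to 448 ± 54.5 CPM (mean ± SD, n = 3).

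Membrane and traffic genes held both the largest and the smallest change of the 53 in vehicle cells. There 10 of 11 were called higher, with changes of 0.15 to 6.18 and a median of 1.98, and in AG-120 cells all 11, with a median of 2.02. SLC12A4 (chromosome 16, 67977377 to 68003504), the potassium-chloride cotransporter KCC1, had 44.3, 44.4 and 43.9 CPM in vehicle and 196, 197 and 192 CPM in vehicle_Nutlin. It had 60.2, 56.8 and 56.3 CPM in AG120 and 225, 244 and 233 CPM in AG120_Nutlin. Like CES2 it stood higher in every AG-120 library than in every matching vehicle library, and its Nutlin response was 4.41-fold in vehicle cells (log2 2.14, SE 0.08, edgeR adjusted p = 2.177e-10) and 4.05-fold in AG-120 cells.

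CD82 (chromosome 11, 44585977 to 44641913), a tetraspanin known as a metastasis suppressor, had 67.8, 72 and 70.1 CPM in vehicle and 288, 261 and 253 CPM in vehicle_Nutlin. Its AG120 libraries held 73.2, 64.9 and 68.3 CPM and its AG120_Nutlin libraries 337, 351 and 321 CPM. The groups overlapped without Nutlin, and with it the AG-120 libraries were all higher. CD82 rose 3.82-fold in vehicle cells (log2 1.93, SE 0.09, edgeR adjusted p = 1.819e-09) and 4.89-fold in AG-120 cells. Another tetraspanin, TSPAN11 (chromosome 12, 31079362 to 31149534), was near 0 without Nutlin, with 0.602, 0.113 and 0.447 CPM in vehicle and 0.728, 0.294 and 0.527 CPM in AG120. It reached 25.4, 25.8 and 24 CPM in vehicle_Nutlin and 36.4, 36.7 and 35.3 CPM in AG120_Nutlin. The rise was 61.5-fold in vehicle cells (log2 5.94, SE 0.33, edgeR adjusted p = 2.043e-09) and 68.1-fold in AG-120 cells.

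VWCE, a secreted protein with von Willebrand factor C domains, rose 72.3-fold in vehicle cells and 49.5-fold in AG-120 cells, with its starting level resting on few reads: 0.251, 0.17 and 0.516 CPM in vehicle and 0.0857, 1.28 and 1.05 CPM in AG120. The remaining members rose less. SYTL1, a Rab27 effector in secretion, rose 4.67-fold in vehicle cells, BLOC1S2, a subunit of lysosome-positioning complexes, 4.10-fold, and TM7SF3, a multi-pass membrane protein, 3.94-fold. MICALL1, which organises recycling endosomes, rose 3.48-fold, from 64.6 ± 2.68 CPM to 307, 286 and 82.5 CPM, the last being vehicle_Nutlin replicate 3. ORAI3, a store-operated calcium channel, rose 3.13-fold and ANXA4, a calcium-dependent phospholipid-binding protein, 2.54-fold.

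LAPTM5 (chromosome 1, 31205316 to 31230667), a lysosomal membrane protein best known from blood cells, was the only tested target not called in vehicle cells. It had 19.7, 15.4 and 14.6 CPM in vehicle, 16.1, 17.1 and 21.6 CPM in vehicle_Nutlin, 18.8, 16.9 and 15.9 CPM in AG120 and 22.3, 21.6 and 26.8 CPM in AG120_Nutlin. Vehicle and vehicle_Nutlin overlapped, and the change was 0.15 (log2, SE 0.15, edgeR adjusted p = 0.4441). AG120 and AG120_Nutlin did not overlap, and the change of 0.46 (SE 0.15) was called at an edgeR adjusted p of 0.02143. That call was lost without AG120 replicate 2 (0.05441), AG120 replicate 3 (0.06814) or AG120_Nutlin replicate 3 (0.1027). The 2 responses differed by 0.31 (95% interval -0.15 to 0.78), so they were not shown to differ.

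Genes that act in gene regulation rose in 10 of 10 cases in each background, with medians of 2.36 in vehicle and 2.43 in AG-120 cells. ZNF561 (chromosome 19, 9715356 to 9732075), a zinc finger protein, had 19, 21.1 and 19.8 CPM in vehicle, 153, 148 and 214 CPM in vehicle_Nutlin, 25.4, 21.5 and 20.1 CPM in AG120 and 192, 197 and 197 CPM in AG120_Nutlin. Libraries with and without Nutlin stood well apart, and the change was 8.60-fold in vehicle cells (log2 3.10, SE 0.14, edgeR adjusted p = 2.081e-09) and 8.72-fold in AG-120 cells. ZMAT3 (chromosome 3, 178735011 to 178790067), a zinc finger RNA-binding protein that acts in splicing, had 62.7, 61.3 and 56.2 CPM in vehicle and 480, 376 and 528 CPM in vehicle_Nutlin. It had 102, 79.8 and 71.2 CPM in AG120 and 520, 508 and 534 CPM in AG120_Nutlin. The rise was 7.68-fold in vehicle cells (log2 2.94, SE 0.14, edgeR adjusted p = 5.125e-09) and 6.17-fold in AG-120 cells, where the starting level was higher in all 3 libraries.

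GRHL3 (chromosome 1, 24645812 to 24690972), a transcription factor of epithelial barrier formation whose promoter site is printed above, had 2.46, 2.6 and 2.3 CPM in vehicle and 32.2, 30.1 and 22.8 CPM in vehicle_Nutlin. It stood at 0.814, 1.23 and 1.95 CPM in AG120 and at 37.4, 37 and 39.6 CPM in AG120_Nutlin. The AG120 libraries were the lowest of the 12 and the AG120_Nutlin libraries the highest. Its response was 11.6-fold in vehicle cells (log2 3.53, SE 0.21, edgeR adjusted p = 2.235e-08) and 29-fold in AG-120 cells (log2 4.86, SE 0.24, edgeR adjusted p = 2.296e-09).

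Among the others, SERTAD1, a cofactor that binds CDK4, rose 9.48-fold in vehicle cells, and ANKRA2, an ankyrin-repeat protein that binds class IIa histone deacetylases, 6.69-fold. FBXO22, a substrate receptor of a ubiquitin ligase, rose 3.96-fold and the zinc finger protein ZNF337 2.84-fold. RPS27L rose 2.63-fold, and since it is a close relative of the ribosomal protein gene RPS27, some of its reads could have been split between the copies. DCP1B, an mRNA decapping factor with a promoter site above, rose 2.29-fold, and CCNK, the cyclin partner of CDK12 and CDK13, rose 2.26-fold.

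FAM13C (chromosome 10, 61005890 to 61122939), a gene of no settled role, had the largest fitted change in AG-120 cells and 2 promoters with a site. It had 0.201, 0.113 and 0.138 CPM in vehicle, 10.6, 8.99 and 6.71 CPM in vehicle_Nutlin, 0.0428, 0.0491 and 0.0527 CPM in AG120 and 10.7, 10.7 and 10.5 CPM in AG120_Nutlin. The libraries without Nutlin were all close to 0, so the size of the fold rests on few reads: 10 counts over vehicle and 3 counts over AG120. By summed counts the ratio was 57.5 in vehicle cells (exact 95% interval 31 to 121) and 223 in AG-120 cells (75.8 to 1080), and these intervals overlap.

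**Figure D2:**
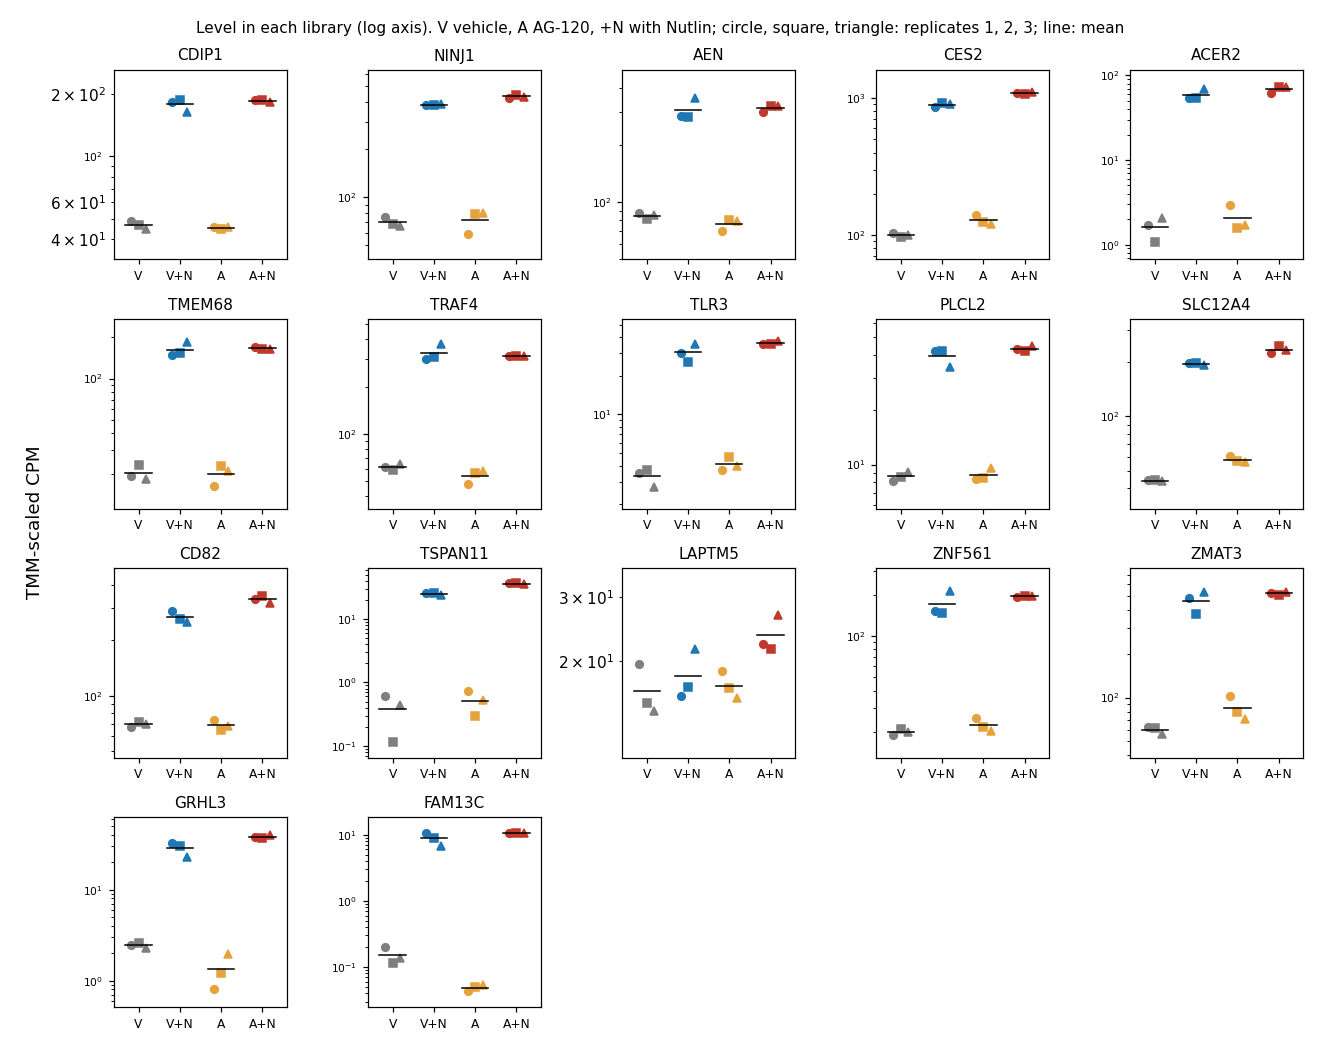
Level of the 17 tested genes described library by library (y axis, TMM-scaled CPM on a log axis with its own range per panel) in the 4 groups (x axis: V vehicle, V+N vehicle_Nutlin, A AG120, A+N AG120_Nutlin). Circles, squares and triangles are replicates 1, 2 and 3 and lines are group means; in every panel but that of LAPTM5 all points with Nutlin lie above all points without it.

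Some entries share bases with another protein-coding entry, 22 of the 56, and how the counting treated strand is not given in the sources used here, so reads from shared bases cannot be told apart. Where a target and its partner overlap, the partner did not always rise. The counts below are examples, summed over the libraries of a group and not scaled for depth. PHYHIPL, which shares 1645 bases with FAM13C, had 63 counts over vehicle and 58 over vehicle_Nutlin. STPG1, which shares 7484 bases with GRHL3, had 554 and 452. LACTB, which shares 16190 bases with RPS27L, had fewer counts with Nutlin, 1571 against 3377. TGS1, which shares 266 bases with TMEM68, had 1734 and 4445 counts, and C19orf82, which shares 109 bases with ZNF561, had 111 and 1010. LCAT, which shares 658 bases with SLC12A4, had 275 and 592. For these, the part of shared reads in the rise was not tested.

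The other genes of the p53 pathway moved with them. Of 26 tested pathway genes, 22 were called higher with Nutlin in vehicle cells and 22 in AG-120 cells. All 7 death genes and all 4 repair genes were called higher in each background, with TP53I3 at 106-fold and RRM2B at 8.06-fold in vehicle cells. Of the 6 arrest genes 5 rose, with BTG2 at 17.9-fold and CDKN1A at 22.2-fold, while PLK2 changed by -0.08 (not called) in vehicle cells and fell by 0.54 on the log2 scale in AG-120 cells. MDM2, the direct target of Nutlin and itself a p53 target, rose 19.5-fold in vehicle cells. The median change of the 26 was 2.48 in vehicle cells, against 2.08 for the 53 genes described here.

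AG-120 without Nutlin asked whether these genes sit at another level before p53 is activated. No member was called higher or lower by edgeR, against 0.051% of all genes called higher and 0% lower, and the median change was 0.05 (log2), against 0 over all genes. At an unadjusted p under 0.05 there were 7 higher and 1 lower, against 4.82% and 3.17% of all genes. SLC12A4 had the smallest adjusted p, with a change of 0.39 (SE 0.08, edgeR adjusted p = 0.1242), followed by CES2 with 0.36 (SE 0.09, 0.2576). DESeq2 called these 2 and no other member, with 0.542% of all genes called higher. DRAM1 differed by 0.48, ZMAT3 by 0.49 and SYTL1 by 0.55, all uncalled. GRHL3 was the 1 lower gene, at -0.90 (SE 0.26, edgeR adjusted p = 0.3344), and a fit with no filter called it lower (edgeR adjusted p = 0.03343), with 0.105% of all genes. The groups did not overlap for 14 members on the higher side and 7 on the lower, against 11.4% and 10.3% of all genes. Without the 3 libraries that stood apart, 10 were called higher, DGKA, SLC12A4 and DRAM1 among them, and TP53I11 lower, against 3.67% and 1.81% of all genes. That fit holds 1 vehicle_Nutlin library, and takes its spread from the remaining groups. In 46 of 53 genes the 95% interval of the change lay within a 2-fold change either way.

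The AG-120 effect with Nutlin compared the 2 groups in which p53 was activated. No member was called by edgeR, where the background was 0.433% of all genes called higher and 1.93% lower. The change was positive in 40 of 53 genes, with a median of 0.16 (log2), while 49.4% of all genes were positive and their median was -0.01. All 3 AG120_Nutlin libraries stood above all 3 vehicle_Nutlin libraries in 22 members, and below them in 0, against 14.2% and 14.1% of all genes. At an unadjusted p under 0.05 there were 10 higher and 0 lower, against 7.96% and 11.6% of all genes. CD82 had the smallest adjusted p, with a change of 0.33 (SE 0.09, edgeR adjusted p = 0.06573), then SLC12A4 with 0.26 (SE 0.07, 0.08712) and CES2 with 0.28 (SE 0.09, 0.112). ALOX5, at 8.15, 9.95 and 6.28 CPM in vehicle_Nutlin and 13.4, 13.6 and 13.2 CPM in AG120_Nutlin, differed by 0.73 (SE 0.24, edgeR adjusted p = 0.125), and TSPAN11 by 0.53 (SE 0.19, 0.1528). DESeq2 called these 5 genes and no other member, with 1.68% of all genes called higher, and a fit with no filter called ALOX5, RALGDS, MICALL1 and VWCE, with 2.01%. In 48 of 53 genes the interval lay within a 2-fold change.

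The calls varied with the vehicle_Nutlin library left out. Against the mean of the 6 Nutlin libraries, 43 of 53 members lay below it in vehicle_Nutlin replicate 1, 38 in replicate 2 and 27 in replicate 3, while 38 lay above it in each AG120_Nutlin library. In replicate 3 the members were scattered most, from -1.65 (MICALL1) to 0.50 (PHPT1). Without vehicle_Nutlin replicate 1 the fit called CD82 alone of 54 members, with 418 of 16099 genes called higher. Without replicate 3 it called CD82, SLC12A4 and ZNF561, with 49 of 54 members positive and 1.27% of all genes called higher. Without the 3 libraries that stood apart it called 11 members higher, against 3.8% of all genes. PLTP was called without vehicle_Nutlin replicate 2, but that library held all 6 PLTP counts of its group, so that fit set the group to 0. The part of library quality in the difference was not tested.

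**Figure D3:**
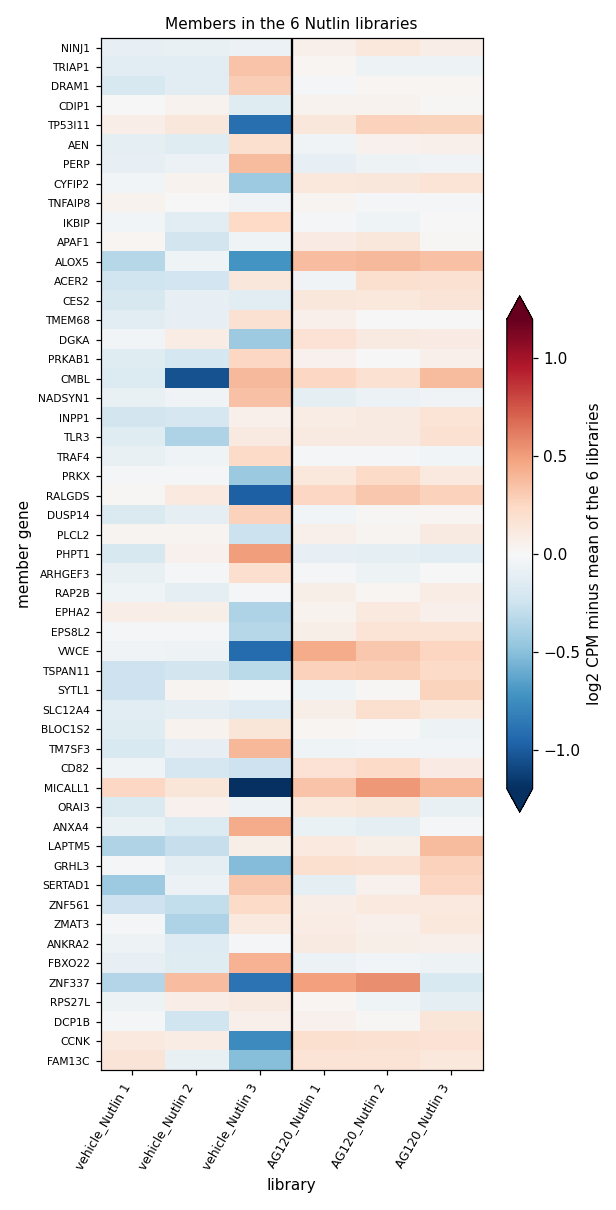
Level of the 53 tested targets (rows) in the 6 Nutlin libraries (columns), as log2 CPM minus the gene's mean over the 6, with red above and blue below that mean and colours ending at ±1.2. The first 2 vehicle_Nutlin columns are mostly pale blue (43 and 38 genes below the mean), replicate 3 is mixed with MICALL1 lowest at -1.65, and the AG120_Nutlin columns are mostly pale red (38 genes above it in each).

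The difference between the Nutlin responses asked whether AG-120 changed the induction itself. No member was called by edgeR, against 0.0319% of all genes higher and 0.331% lower, and the median difference was 0.02 (log2), against -0.01 over all genes. At an unadjusted p under 0.05 there were 5 larger and 1 smaller in AG-120 cells, against 3.72% and 7.3% of all genes. For 42 of 53 members the 95% interval of the difference lay within a 2-fold change either way, and for 27 within a 1.5-fold change, so a larger difference was outside the interval for these. CES2 gave the difference -0.08 (-0.34 to 0.19), SLC12A4 -0.12 (-0.35 to 0.11) and CDIP1 0.10 (-0.15 to 0.35). For ALOX5 (0.02, interval -1.37 to 1.41) and VWCE (-0.55, -2.27 to 1.18), which start near 0, the data leave a wide range.

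GRHL3 had the smallest adjusted p. Its response in AG-120 cells minus that in vehicle cells was 1.32 (SE 0.32, 95% interval 0.64 to 2.01, edgeR adjusted p = 0.1191), and its libraries were lower without Nutlin and higher with it after AG-120. DESeq2 called it (0.166% of all genes were called larger), as did edgeR with no filter (0.27%), without vehicle_Nutlin replicate 3 (1.19, edgeR adjusted p = 0.04218) and without AG120 replicate 3 (1.69, 0.03181). Without the 3 libraries that stood apart, which leaves 1 vehicle_Nutlin library, the GRHL3 difference was 0.87. FAM13C differed by 1.81, with an interval of -0.25 to 3.88. TP53I11 differed by 0.75 (0.12 to 1.38), RALGDS by 0.66 (0.02 to 1.29) and CD82 by 0.36 (0.09 to 0.62), none of them called, although a fit with no filter called TP53I11 (0.76, edgeR adjusted p = 0.0253). TP53I11 and RALGDS are 2 of the 3 genes that were low in vehicle_Nutlin replicate 3, at 89.9 against 178 and 184 CPM and at 181 against 360 and 386 CPM. DRAM1 differed in the other direction, by -0.48 (-0.86 to -0.10), uncalled. Its level was 48.1 ± 3.72 CPM in AG120 and 34.5 ± 2.72 in vehicle (mean ± SD, n = 3), and with Nutlin 147 ± 2.93 in AG120_Nutlin and 147 ± 28.2 in vehicle_Nutlin. Without the 3 libraries that stood apart, 4 members were called larger (TP53I11, RALGDS, CD82 and GRHL3) and 2 smaller (DGKA and VWCE), against 1.12% and 2.73% of all genes.

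**Figure D4:**
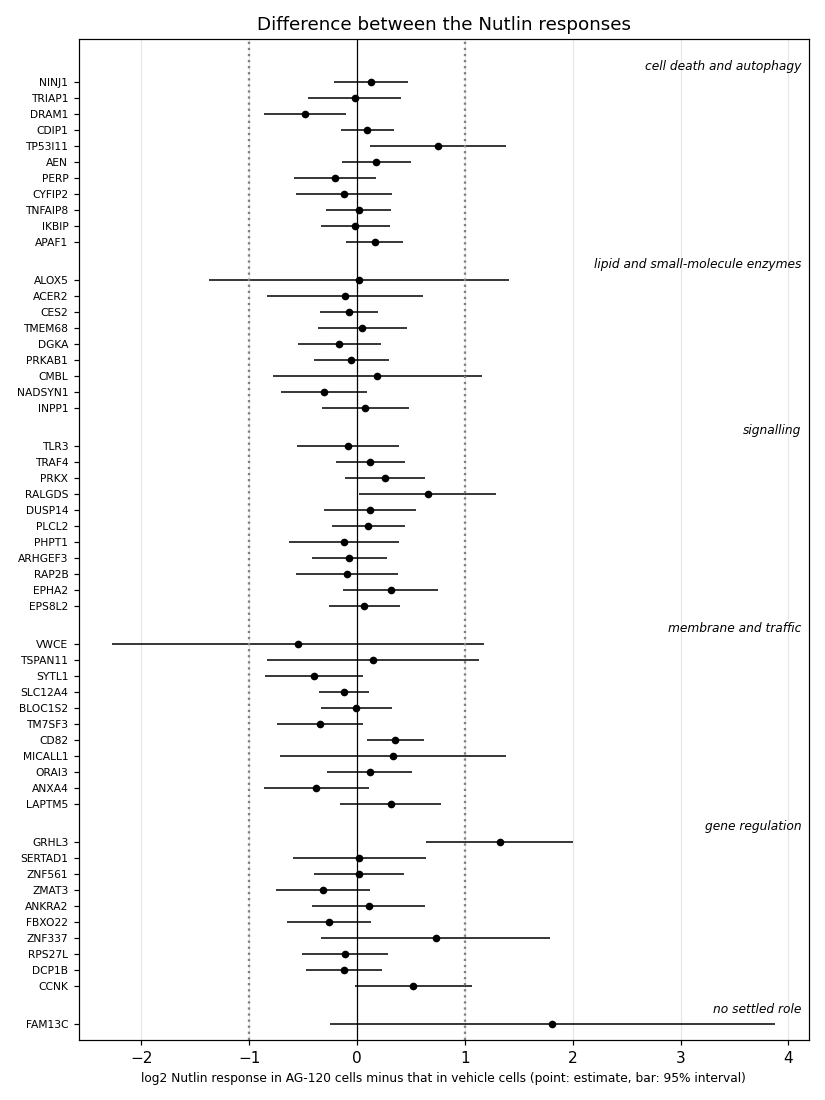
Nutlin response in AG-120 cells minus that in vehicle cells (x axis, log2) of the 53 tested targets (y axis, grouped by role), with points for the edgeR estimate, bars for the 95% interval and dotted lines at a 2-fold difference either way. GRHL3 (1.32) and FAM13C (1.81) lie farthest right, 42 intervals lie within the dotted lines, and the bars of ALOX5, VWCE and FAM13C are the widest.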

How the data were processed

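The authors deposited raw read counts per gene symbol (whole numbers, not normalized), with hg19 gene positions in the same table. Per the submitters' processing notes, Partek, STAR, HTSeq and DESeq2 were used, with hg19. Versions and strand settings are not given in the sources used here. The deposited end of a gene lies 1 base past its last base, so 1 was subtracted. The software was edgeR 4.0.16 in R 4.3.3, on limma 3.58.1, with DESeq2 1.42.0 as an alternative. The 4 groups set the filter on low counts (filterByExpr); libraries were scaled by TMM and fitted with glmQLFit to all 12 libraries, and 5 contrasts were tested with glmQLFTest over 15691 genes and adjusted by the Benjamini-Hochberg method. The SE of a change comes from the fitted quasi-likelihood variance and is never below the Poisson error. The script was tested on simulated counts. Library values are given for the 3 genes per role with the smallest adjusted p for Nutlin in vehicle cells, for every gene not called there or in AG-120 cells, for those under the filter, and for a few genes chosen after their values were seen (ALOX5, VWCE, MICALL1, CMBL, TP53I11 and RALGDS). The genes, their role groups and the pathway list were chosen with earlier results of these data known. Results of some genes on the lists are not reported here. TIGAR, a pathway gene, was not matched in the table. Promoters are from RefSeq (GRCh38.p14), and gene strands are from GENCODE.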

Additional observations from a re-analysis of the deposited data

How the results depend on the processing

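The alternatives were DESeq2, DESeq2 size factors or library totals in edgeR, no filter on low counts or a minimum of 1 CPM in 3 libraries, a replicate block, a fit of only 2 groups, and the omission of any single library. A fit without the 3 libraries that stood apart was added after seeing the data. The 52 and 53 members called higher with Nutlin in vehicle and AG-120 cells kept their direction in these fits. They also kept their calls wherever more than 1 library was left in every group, except LAPTM5 in AG-120 cells. PLTP, left out of the main fit, was called higher in AG-120 cells with no filter and in some fits with a library left out. It had 0 counts in every AG120 library, so in these fits it could only come out higher. In vehicle cells 53 of 54 members were positive without vehicle_Nutlin replicate 2, and 53 of 54 without replicate 3. For AG-120 without Nutlin, members called higher numbered 2 with DESeq2 and 10 without the 3 libraries, and members called lower numbered 1 with no filter and 1 without the 3 libraries. For AG-120 with Nutlin, members called higher numbered 5 with DESeq2, 4 with no filter, 0 to 3 when a library was left out and 11 without the 3 libraries. For the difference between the responses, members called higher numbered 1 with DESeq2, 2 with no filter and 0 to 1 when a library was left out. None of the called changes reversed, nor did those of the 8, 10 and 6 members with an unadjusted p under 0.05 in the AG-120 comparisons and their difference. Uncalled members near 0 did change sign: members with a positive AG-120 effect without Nutlin numbered 35 of 53, and 29 with library totals.

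Same-numbered replicates did not deviate together (correlations of -0.224 to 0.0908 over the 4 pairs of groups), so the numbers were not read as pairs. With the replicate block, 52 members were called higher with Nutlin in vehicle cells, 53 in AG-120 cells and 0 in the other 3 comparisons. Genes with few reads without Nutlin (FAM13C, ALOX5, TSPAN11, VWCE, PLTP) are limited by depth, and their folds are less certain than those of genes such as CES2.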
